A study of Danio rerio with 17 samples.

Results

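Both mpeg1-labelled populations of the adult zebrafish epidermis, named MLCs and cLCs, were compared with neutrophils and T cells picked from that tissue. The comparison used 14 of the 17 libraries of the study: 4 of MLCs and 4 of cLCs on one side, and 3 of neutrophils and 3 of T cells on the other. The 3 keratinocyte libraries are given for reference. Each group had equal weight, and a gene was counted as shared only where its fitted direction was the same in all 4 pairs of groups (MLCs with neutrophils, MLCs with T cells, cLCs with neutrophils and cLCs with T cells). The question was which genes set the mpeg1 side apart whatever separates MLCs from cLCs.

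Cells were picked by hand by their fluorescence, and their RNA was amplified by SMART-seq2, a method that copies whole transcripts from very little material. MLCs and cLCs both came from 1 line with a pair of transgenes. In mpeg1:loxP-DsRedx-loxP-GFP the promoter of mpeg1 drives a red reporter that turns green after recombination, and in hsp70:mCherry-T2a-CreERT2 a heat-shock promoter drives the recombinase. Neutrophils came from Tg(lyz:GFP) fish, T cells from Tg(lck:DsRedx) fish and keratinocytes from Tg(krt4:lyn-GFP) fish, all adult. The line therefore differed between the sides wherever the cell type did, and the 2 cannot be told apart. What MLC and cLC stand for, and how many cells each library holds, are not stated in the labels used.

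mpeg1 encodes perforin-2, a pore-forming protein of macrophages and related cells. Such cells are known for taking up material, digesting it in acid lysosomes and showing the peptides on MHC class II molecules, which the invariant chain CD74 escorts and which the transactivator CIITA switches on. They also carry Toll-like receptors, which detect microbial products at the surface or in endosomes. Neutrophils are known for stored granule proteins and T cells for the antigen receptor and its signalling kinases.

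Total gene counts ran from 5837662 to 21343723 in MLCs, 6158350 to 19046921 in cLCs, 14082748 to 24596883 in neutrophils and 12128321 to 16499725 in T cells. Detected genes (1 count or more) ran from 4484 to 16921 per library, and 4 of the 14 libraries had under 6000 (cLCs replicates 3 and 4, neutrophils replicates 2 and 3). The defining genes followed the labels. The lysozyme gene lyz stood at 2077, 1116 and 2276 CPM (counts scaled to the library size after TMM) in the 3 neutrophil libraries, at 0 in 7 of the 8 mpeg1 libraries and at 21.1, 0 and 0 CPM in the T cell libraries. The T cell kinase gene lck stood at 688, 584 and 593 CPM in T cells, at 0.127, 25.7 and 0 CPM in neutrophils and at 21.6 CPM or less in the mpeg1 libraries. mpeg1.1 itself stood at 862, 1628, 1382 and 1234 CPM in MLCs, 3010, 9898, 3027 and 4113 CPM in cLCs, 0 in each neutrophil library and 4.28, 0 and 0 CPM in T cells. Of the 6 libraries on the other side, T cells replicate 1 thus held traces of both lyz and mpeg1.1.

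In a quasi-likelihood fit of all 17 libraries with edgeR, 625 of 15247 tested genes (4.1%) were higher and 111 (0.728%) lower on the mpeg1 side at a Benjamini-Hochberg adjusted p under 0.05 with the same direction in all 4 pairs. Another 57 genes were called without the same direction in all pairs and are left out of these counts. A stricter count asked for a call in each of the 4 pairs by itself, and left 13 genes higher (0.0853%) and 2 lower (0.0131%). Without any test, every mpeg1 library lay above every neutrophil and T cell library for 122 genes (0.8%) and below every one for 35 (0.23%). Without the 4 libraries of under 6000 genes these counts were 588 and 358. Without cLCs replicate 4 alone the first was 217, and without neutrophils replicate 2 or 3 the second was 77 or 86. Leaving libraries out makes complete separation easier to reach, so these rises by themselves show no further difference. Of the called genes, 92 higher and 16 lower were free of overlap across all 14 libraries. p-values measure the spread between these libraries, which the series text describes as coming from independent experiments.

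For many of the 625 genes the means of MLCs and cLCs were unequal, but the contrast of MLCs with cLCs was called for 2 of them. The MLC mean was over 10 times the cLC mean for 265, the cLC mean over 10 times the MLC mean for 68, and both were within 10 times of each other for 292. Both means reached 10 CPM for 264 genes, a mark set after seeing the values. On the other side 265 of the 625 genes had 0 counts in all 6 libraries. Of the 111 lower genes, 53 had means of at least 10 CPM in both neutrophils and T cells. The count of 625 fell to 393 without MLCs replicate 1, 306 without cLCs replicate 2, 280 and 318 without neutrophils replicates 2 and 3, and 365, 240 and 249 without T cells replicates 1, 2 and 3. The count of 111 fell to 71 without MLCs replicate 2, 65 without cLCs replicate 2, 70 without neutrophils replicate 1 and 46 without T cells replicate 1. The count of 13 higher in each pair became 0 without cLCs replicate 1, cLCs replicate 2 or T cells replicate 2. It became 1 when T cells replicate 3 was left out, and that gene was not among the 13. It became 6 and 8 for MLCs replicates 2 and 4, and 24 for cLCs replicate 4. The 2 called lower became 0 without cLCs replicate 1, 2 or 3 or any 1 T cell library. With the 4 libraries of under 6000 genes left out, 261 were higher and 54 lower. Limma on log2(TPM + 1) called 671 higher and 539 lower, so the share of higher calls was 84.92% by edgeR and 55.45% by limma on TPM (65.83% with a pseudocount of 0.1 and 57.8% with no filter). The median log2 difference over all tested genes was 0.59 by edgeR and -0.18 by limma on TPM.

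**Figure D1:**
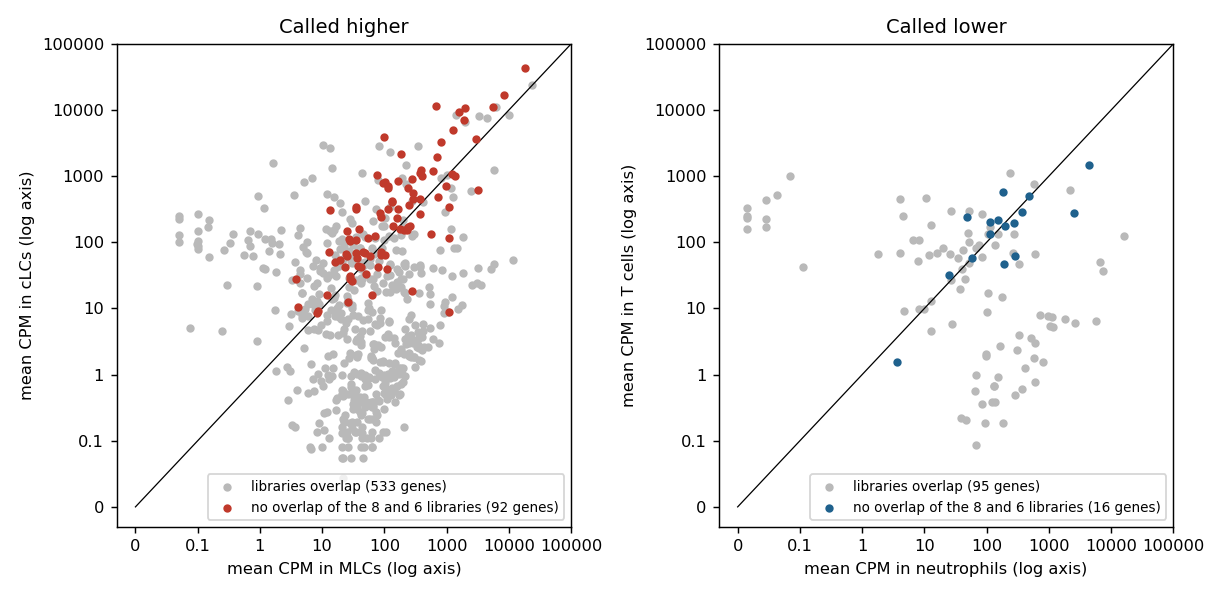
Mean CPM of the genes called higher, in MLCs (x) and cLCs (y), and of the genes called lower, in neutrophils (x) and T cells (y), on log axes with the line of equal means. Both means lie within 10 times of each other for 292 of the 625 genes higher and 53 of the 111 lower, and the 92 and 16 genes without overlap are marked.

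Toll-like receptor genes tlr8b, tlr4bb and tlr21 and the Toll-like receptor relative cd180 were each above all neutrophil and T cell libraries in all 8 mpeg1 libraries. tlr8b, whose mammalian counterpart detects single-stranded RNA in endosomes, stood at 682, 317, 94.98 and 64.6 CPM in MLCs and 815, 324, 1057 and 45.2 CPM in cLCs. Its counts came to 0 in neutrophils and 1 in T cells, and the groups did not overlap (edgeR adjusted p = 8.78e-05). All 4 pairs were called for it.

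cd180, a surface receptor that in mammals pairs with LY86, stood at 321, 239, 189.5 and 166 CPM in MLCs and 186, 210.3, 179 and 37.5 CPM in cLCs. Its 1 read outside the mpeg1 side lay in T cells replicate 1, keratinocytes had none, and all 4 pairs were called (adjusted p = 0.000142). Levels in MLCs and cLCs overlapped. ly86, chosen after its values were seen, had means of 55.5 ± 32.4 CPM in MLCs and of 12.03 ± 22.7 CPM in cLCs (SD, n = 4) and 0 counts in the other 9 libraries (adjusted p = 0.0162). Its groups overlapped, because cLCs replicate 3 was at 0.

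tlr4bb, a zebrafish paralog of the gene for TLR4, which in mammals detects lipopolysaccharide together with LY96, stood at 86.1, 30.1, 115 and 117 CPM in MLCs and 4.66, 111, 129.8 and 45.2 CPM in cLCs. cLCs replicate 1 was low, yet above every library of the other side, which held 1 read in all (adjusted p = 0.00136; called in 3 of 4 pairs). ly96, also chosen after its values were seen, stood at 93.9, 18.4, 62.6 and 18.7 CPM in MLCs and 45.02, 94.7, 34.9 and 98.7 CPM in cLCs, against 0 in neutrophils and 0.5603, 0 and 0 CPM in T cells (adjusted p = 0.00604). Of other genes looked at in this way, slc15a4 was called higher (edgeR adjusted p = 0.0463) and unc93b1 was not called (edgeR adjusted p = 0.278). Means of unc93b1 were 51.6, 61.8, 15.8 and 1.32 CPM in MLCs, cLCs, neutrophils and T cells, with cLCs replicate 4 at 0. tlr21, a receptor of fish and birds known in chicken for detecting DNA with CpG motifs, had means of 54.2 ± 13.2 CPM and 116 ± 128 CPM and 3 reads on the other side (adjusted p = 0.0016).

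By list, 6 of 38 tested innate sensing genes were higher (15.79%, against 4.1% of all tested genes) and 1 lower (2.632%, against 0.728%). Of the 6, 4 had means of at least 10 CPM in both mpeg1 groups. tlr2 was called with overlapping libraries, since cLCs replicate 3 was at 0. Its mean was 58.4 ± 32.8 CPM in MLCs and, in cLCs, 55.4 ± 64.98 CPM (adjusted p = 0.00803). tlr8a was called at low levels, with means of 3.76 ± 3.43 CPM and 27.8 ± 50.2 CPM. The caspase gene caspb was called from MLCs, at 32.2 ± 29.5 CPM against 1.09 ± 2.12 CPM in cLCs. Outside the receptors, the adaptor gene myd88 and the kinase gene irak4 were not called. myd88 had means of 87.1, 37.8, 93.7 and 79.6 CPM in MLCs, cLCs, neutrophils and T cells (adjusted p = 0.968), and irak4 20.1, 14.7, 19.7 and 33.5 CPM (adjusted p = 0.977). The median log2 difference of the list was 0.61, against 0.59 over all tested genes. With group means held at or above the limit of 3 counts over a group, it was 0.27 against 0.49. Summed over the list, MLC libraries held 2633 to 3051 CPM and cLC libraries 3264 to 8859 CPM. Neutrophil libraries held 2677 to 5870 CPM and T cell libraries 3422 to 4015 CPM. In this sum MLCs lay below T cells, and both mpeg1 groups overlapped neutrophils. The lower member, nlrc3 of the NOD-like receptors, stood at 431, 455 and 484 CPM in T cells and 12.3, 0 and 0 CPM in neutrophils, and its call ended without neutrophils replicate 1.

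**Figure D2:**
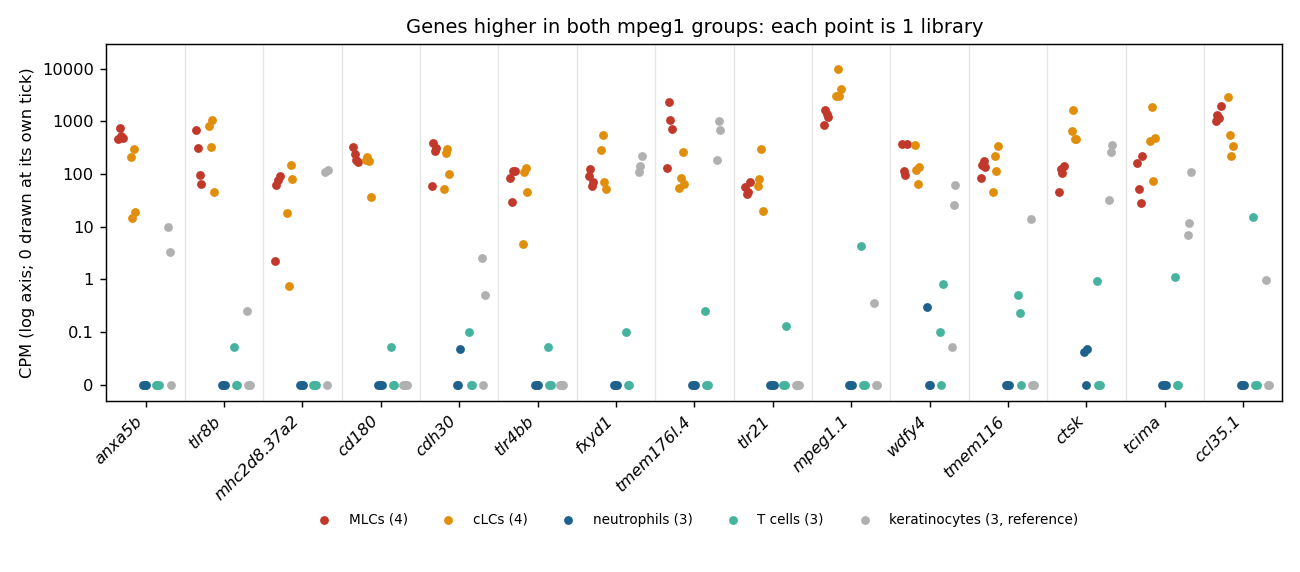
CPM (log axis, with 0 at its own tick) of the 15 named genes higher on the mpeg1 side, 1 point per library and 1 color per group. In each gene the 8 MLC and cLC points lie above the 6 neutrophil and T cell points. Keratinocytes are at 0 for cd180, tlr4bb and tlr21. Their mean lies between those of MLCs and cLCs for fxyd1, tmem176l.4 and ctsk, and above both for mhc2d8.37a2.

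Higher genes of the MHC class II pathway included the transactivator, the invariant chains, class II chains and the thiol reductase. Of 21 tested members, 8 were higher and 1 lower, against 4.1% and 0.728% of all tested genes. All 8 had means of at least 10 CPM in both mpeg1 groups. The median log2 difference of the list was 5.48, against 0.59 over all tested genes. Summed over the list, MLC libraries held 23230 to 73340 CPM and cLC libraries 34480 to 233700 CPM. T cell libraries held 2506 to 4057 CPM, neutrophil libraries 157 to 1127 CPM and keratinocyte libraries 12630 to 13960 CPM. The mpeg1 libraries thus lay above all others, and T cells above neutrophils.

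The invariant chain gene cd74a stood at 15110, 30890, 14670 and 12530 CPM in MLCs and 33100, 91940, 18420 and 32670 CPM in cLCs. Neutrophils had 29.5, 0 and 0 CPM and T cells 768, 1268 and 917 CPM, with no overlap (log2 difference 8.17, SE 1.28, adjusted p = 0.000673). The difference was uneven on the other side: both pairs with neutrophils were called for cd74a and neither pair with T cells. cd74b followed the same order, with means of 8357, 17060, 25.98 and 872 CPM in MLCs, cLCs, neutrophils and T cells (adjusted p = 0.00107).

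ciita, the transactivator gene, stood at 77.7, 95.3, 178 and 51.3 CPM in MLCs and 27.2, 25.1, 41.2 and 162 CPM in cLCs. It had 0 counts in neutrophils and 6.62, 0 and 0 CPM in T cells, so the groups did not overlap (adjusted p = 0.00683). The factors that bind class II promoters with it were not called: rfx5 had means of 6.51, 2.19, 1.93 and 6.68 CPM in MLCs, cLCs, neutrophils and T cells, and rfxank 6.74, 3.69, 4.16 and 43.3 CPM. Among the class II chains, a gene named mhc2b (ENSDARG00000104635) had means of 6176 CPM in MLCs and of 11050 CPM in cLCs against 3.09 and 128 CPM in neutrophils and T cells (adjusted p = 0.032). A second gene of that name (ENSDARG00000104730) had 91.4 and 179.6 CPM against 0 and 0.0679 CPM.

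mhc2d8.37a2 was at least 1170-fold higher in the lower of the mpeg1 means than the limit of 3 counts over a group, with 2.197, 62.01, 77.7 and 90.3 CPM in MLCs, 18.4, 0.758, 148 and 82.3 CPM in cLCs, but 0 counts in neutrophils and T cells (adjusted p = 0.00387; 0.0889 without the 4 libraries of under 6000 genes). None of its 4 pairs was called alone, and MLCs replicate 1 and cLCs replicate 2 were low. Keratinocytes held 110.1, 0 and 120.4 CPM of mhc2d8.37a2, and their mean of 76.8 CPM was above those of MLCs (58.05 CPM) and cLCs (62.4 CPM). Further class II chain genes without overlap, picked out after their values were seen, were mhc2daa (means of 5629, 11020, 14.6 and 1105 CPM in the same order) and mhc2d4b (368, 269.6, 0.0141 and 23.9 CPM). Class II chain genes are near copies of each other, and how the authors' counting split reads among them is not given in the sources used here. mhc2dab, at 2064 and 1692 CPM against 14.1 and 579 CPM, was not called (adjusted p = 0.179).

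ifi30 was the 1 pathway member called in all 4 pairs. It encodes the lysosomal thiol reductase that opens disulfide bonds of antigens, and stood at 1780, 4412, 3315 and 2272 CPM in MLCs and 1936, 9504, 1141 and 2233 CPM in cLCs. Neutrophils had 37.7, 48.3 and 21.97 CPM and T cells 97.8, 92.6 and 65.1 CPM, so the lowest mpeg1 library was more than 10 times the highest library of the other side (log2 difference 5.90, SE 0.71, adjusted p = 8.78e-05). wdfy4, known in mouse dendritic cells for cross-presentation, had 381, 114, 95.6 and 381 CPM in MLCs and 365, 122, 65.99 and 136 CPM in cLCs against 28 reads in all 6 other libraries (adjusted p = 0.00201). The activation marker cd83 was not called (adjusted p = 0.0503), at 1207, 2601, 1246 and 1046 CPM in MLCs and 1885, 6696, 915 and 342 CPM in cLCs. T cells had 291, 556 and 462 CPM of cd83, of which replicates 2 and 3 lay above the lowest cLC library, and neutrophils 47.3, 0 and 0 CPM. It passed under 14 of 29 alternatives, among them DESeq2.

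**Figure D3:**
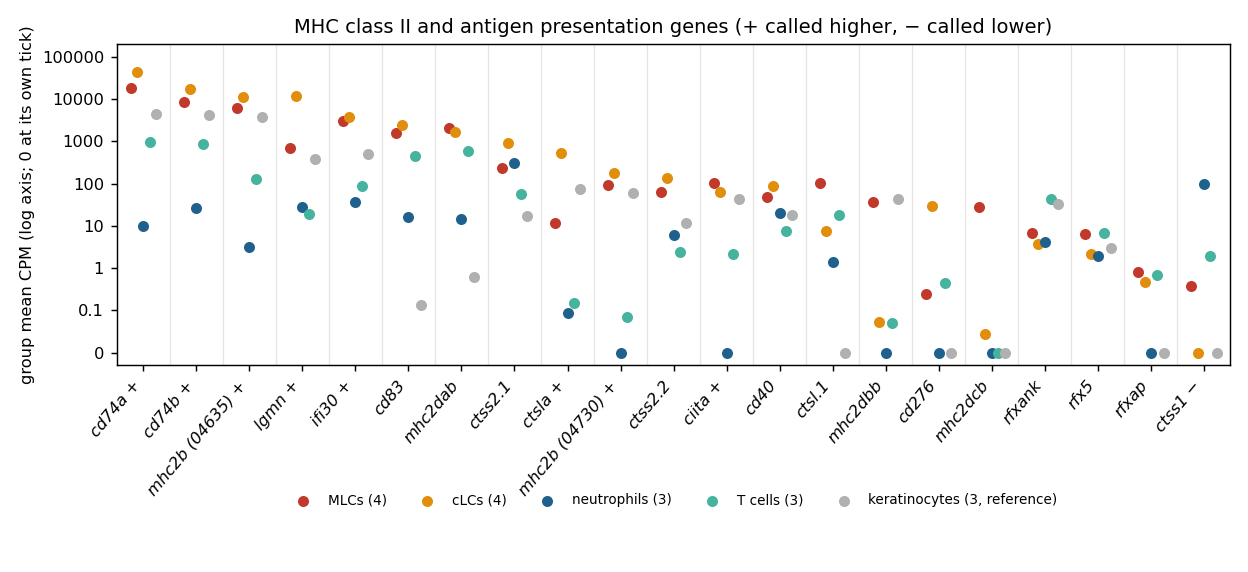
Group mean CPM (log axis, with 0 at its own tick) of the 21 tested MHC class II and antigen presentation genes, 1 color per group, with + for called higher and − for called lower. The mpeg1 groups are highest for cd74a, cd74b and both mhc2b genes, keratinocytes and T cells follow for the CD74 genes, and ctss1 is the 1 gene called lower.

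Lysosomal genes formed the next group: 18 of 49 tested members were higher (36.73%, against 4.1% of all tested genes) and 1 lower (2.041%, against 0.728%). Of the 18, 16 had means of at least 10 CPM in both mpeg1 groups. The median log2 difference was 3.13. ctsk, a collagen-cutting protease, stood at 45.3, 122, 103 and 146 CPM in MLCs and 657, 1689, 475 and 467 CPM in cLCs against 0.917, 0 and 0 CPM in T cells and 2 reads in neutrophils (adjusted p = 0.000182; all 4 pairs called). ctsh, an aminopeptidase, stood at 58.3, 166, 309 and 423 CPM and 513, 1079, 683 and 357 CPM against 20.3, 42.6 and 23.96 CPM in T cells and 0 in neutrophils (adjusted p = 8.78e-05). Its lowest MLC library and its highest T cell library were close, and the call ended (adjusted p = 0.059) in a fit that gave each side 1 mean over its libraries in place of 1 per group.

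The legumain gene lgmn was higher at 303, 939.6, 574 and 883 CPM in MLCs and 3595, 39080, 2961 and 611 CPM in cLCs, a spread of more than 10 times within cLCs (adjusted p = 0.00999; no pair called alone). Genes of granulin and saposin precursors were higher as well. grna had means of 702 ± 209.6 CPM and 1943 ± 992 CPM against 2.24 ± 3.88 and 43.05 ± 6.19 CPM in neutrophils and T cells, and psap 1406 ± 859 and 8330 ± 7602 CPM against 249 ± 157 and 213 ± 45.5 CPM (adjusted p = 0.00189 and 0.00117). The protease gene ctsd averaged 82.6 CPM in MLCs but 2830 CPM in cLCs, against 63.5 and 22.7 CPM (adjusted p = 0.0102), and MLC libraries overlapped the other side. Another protease gene, ctss1, was lower (adjusted p = 0.0429). It stood at 68.9, 14.02 and 207 CPM in neutrophils, 5.76, 0 and 0 CPM in T cells and 0.799 CPM or less in mpeg1 libraries, and its call ended under 17 of 29 alternatives. Genes of the proton pump that acidifies lysosomes, picked out after their values were seen, were also without overlap: atp6v1c1b had means of 27.6 and 104 CPM against 0.0141 and 0.03396 CPM, and atp6v0ca 274 and 895 CPM against 76.8 and 56.7 CPM.

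Macrophage identity genes were split between the mpeg1 groups. Of 30 tested members 9 were higher (30.0%, against 4.1% of all tested genes) and 1 lower (3.333%, against 0.728%). But 6 more were called without the same direction in all pairs, more than in any other list. mpeg1.1 itself, called in all 4 pairs (adjusted p = 0.000107), is the gene whose promoter labelled the cells. slc37a2, a sugar-phosphate transporter of macrophages, stood at 117, 106, 106 and 196 CPM in MLCs, 262, 541, 645 and 270.2 CPM in cLCs, against 0.0846, 0 and 0 CPM in neutrophils and 103, 22.8 and 29.5 CPM in T cells (adjusted p = 0.000507). Its MLC libraries lay just above T cells replicate 1, and the call ended with 1 mean per side (adjusted p = 0.166). cd68, a lysosomal glycoprotein of macrophages, had means of 827 ± 284, 3249 ± 2386, 368 ± 206 and 175 ± 37.9 CPM in MLCs, cLCs, neutrophils and T cells, with no overlap (adjusted p = 0.0168).

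Other members had very unequal means in MLCs and cLCs, although their direction against neutrophils and T cells held in all pairs. The MLC with cLC contrast itself was not called for spic (adjusted p = 0.194), mafba (0.102) or irf8 (0.107). The transcription factor gene spic averaged 607 ± 328 CPM in MLCs but 3.46 ± 6.79 CPM in cLCs. The reverse was seen for mafba, at 0.949 ± 1.897 against 495 ± 302 CPM, and for the interferon regulatory factor gene irf8, at 0.0998 ± 0.1997 against 149 ± 99.4 CPM. In MLCs mafba was read in replicate 1 alone, and the calls of mafba and irf8 ended without that library. Both calls also ended without the 4 libraries of under 6000 genes, and that of irf8 without T cells replicate 2 or 3. spi1a, the gene for a PU.1 factor of myeloid cells, was shared by MLCs (1182 ± 423 CPM), cLCs (671 ± 371 CPM) and neutrophils (474 ± 214 CPM), with 1.77 ± 3.06 CPM in T cells. Its call (adjusted p = 0.0207) rested on T cells, since neither pair with neutrophils was called, and it ended without any 1 of the 3 neutrophil libraries.

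Genes of chemokines and their receptors had 6 of 35 tested members higher (17.14%, against 4.1% of all tested genes) and 0 lower. ccl35.1, a CC chemokine gene, stood at 1019, 1302, 1189 and 1965 CPM in MLCs and 2921, 545, 224 and 347 CPM in cLCs. It was at 0 in neutrophils and at 15.1, 0 and 0 CPM in T cells (adjusted p = 0.00107; both pairs with neutrophils called). Its near copy ccl35.2 was also without overlap, with cLCs replicate 1 high at 629.5 CPM. The receptor gene xcr1a.1, whose mammalian counterpart marks a class of dendritic cells, had means of 934 ± 933 CPM in MLCs and of 12.4 ± 16.9 CPM in cLCs, 1 of which was at 0 (adjusted p = 0.000915). The cytokine subunit gene il12bb averaged 1338 ± 747 CPM in MLCs, 82.3 ± 94.05 CPM in cLCs, against 0 in neutrophils and 0.0679 ± 0.118 CPM in T cells (adjusted p = 0.000666; called in 3 of 4 pairs). In the cytokine list 4 of 25 tested members were higher and 3 lower, against 4.1% and 0.728% of all tested genes. The lower ones were il34, il10 and il4. Of these, il4 stood at 291.6, 0 and 0 CPM in neutrophils and at 2.445, 0 and 3.792 CPM in T cells. Its level in neutrophils thus came from replicate 1 alone. The il4 call was lost under 15 of 27 alternatives, among them the fit without that library.

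Genes of membrane and adhesion proteins were also among the 15. anxa5b, an annexin that binds phosphatidylserine in membranes, stood at 459.7, 764, 534 and 485 CPM in MLCs and 208, 14.7, 296 and 18.8 CPM in cLCs with 0 counts in all 6 other libraries. That was at least 2704-fold above the limit of 3 counts over a group (adjusted p = 0.000227; all 4 pairs called). cdh30, a cadherin family gene (ENSDARG00000104440), had 58.5, 398, 271 and 308 CPM and 51.4, 252, 300.0 and 99.3 CPM against 3 reads (adjusted p = 0.000227; all 4 pairs called).

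fxyd1, a regulator of the sodium pump, had means of 86.8 ± 27.9 and 243 ± 237 CPM in MLCs and cLCs against 2 reads, and 159 ± 59.9 CPM in keratinocytes (adjusted p = 0.000134). tmem176l.4 was uneven, at 133, 2341, 1091 and 734 CPM in MLCs and 55.7, 83.5, 269 and 64.6 CPM in cLCs, against 5 reads (adjusted p = 8.78e-05). tcima and tmem116 complete the 15 named genes, with means of 115 and 714 CPM and of 137 and 179.6 CPM, and at most 1.12 CPM in any library of the other side. tmem116 lost its call without the 4 libraries of under 6000 genes (adjusted p = 0.0571). Of the 15 genes, 8 were called in all 4 pairs.

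Of 15 tested members of the keratin list 5 were higher (33.33%, against 4.1% of all tested genes) and 0 lower. Of the 5, 1 was icn (ictacalcin), which is an S100 family gene and no keratin. krt8 and krt18b were the 2 without overlap. krt8 stood at 2496, 2805, 829.9 and 1649 CPM in MLCs and 6809, 24140, 7397 and 4261 CPM in cLCs, against 197, 4.48 and 0 CPM in neutrophils and 57.4, 0 and 15.2 CPM in T cells (adjusted p = 0.00865; 0.0764 without the 4 libraries of under 6000 genes). Its partner krt18b had means of 1602 ± 503, 9517 ± 9051, 127 ± 189.6 and 33.3 ± 30.7 CPM, and 0.0684 ± 0.118 CPM in keratinocytes (adjusted p = 0.0181). pleca, which encodes plectin, a linker of intermediate filaments, had 1219 ± 415 and 1076 ± 588 CPM against 8.88 ± 15.4 and 2.36 ± 1.85 CPM, and was picked out after its values were seen. krt18 was called (adjusted p = 0.0145) at 502, 739, 327 and 496 CPM in cLCs and 13.98, 0, 0 and 0.0765 CPM in MLCs, and its call ended without MLCs replicate 1 (adjusted p = 0.075) and without the 4 libraries of under 6000 genes (adjusted p = 0.245). krt8 and krt18b were higher in cLCs than in MLCs in all libraries. In keratinocytes krt8 was at 79.1, 379 and 376 CPM and the keratin of their reporter, krt4, at 48690, 20010 and 9511 CPM. krt4 was itself called higher on the mpeg1 side (edgeR adjusted p = 0.00674), with overlap. It stood at 465, 506, 59.98 and 27.2 CPM in MLCs and 24.6, 7.69, 0 and 0 CPM in cLCs. No neutrophil or T cell library was above 1.78 CPM.

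The epithelial lists behaved otherwise. Of 42 tested epithelial junction genes 22 were higher (52.38%, against 4.1% of all tested genes) and 0 lower. This was the largest share higher of any list with at least 10 tested members, and the median log2 difference was 6.55. Of the 22, 7 reached 10 CPM in both mpeg1 groups, against 264 of all 625 genes called higher. Of 20 tested ectodermal transcription factors 6 were higher (30.0%, against 4.1% of all tested genes), and 0 of these 6 reached that mark. cdh1, the E-cadherin gene, was the 1 junction gene without overlap, at 749, 1539, 1250 and 807 CPM in MLCs, 4.85, 26.3, 4.402 and 0.329 CPM in cLCs, with 1243, 1001 and 1234 CPM in keratinocytes, 0 counts in neutrophils and 3 reads in T cells (adjusted p = 8.78e-05). epcam had 2565 ± 1552 CPM in MLCs, 22.8 ± 43.7 CPM in cLCs and 7160 ± 4270 CPM in keratinocytes, with cLCs replicates 3 and 4 at 0. Summed over the list, MLC libraries held 14050 to 25300 CPM, keratinocyte libraries 36370 to 64100 CPM, cLC libraries 130 to 1672 CPM, T cell libraries 561 to 610 CPM and neutrophil libraries 83.9 to 442 CPM. cLCs therefore overlapped neutrophils and T cells in this sum. The part of picked keratinocyte material in the MLC levels was not tested, and in pooled cells fewer cells of a type and less RNA per cell cannot be told apart.

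Keratinocytes expressed many of the shared genes. Of the 625 genes called higher, 56.96% had a keratinocyte mean of at least 10 CPM, against 43.22% of all tested genes. Of the 111 called lower it was 14.41%. Genes at 0 in all 3 keratinocyte libraries included cd180, tlr4bb, tlr21, tlr2, ly96 and grn1.

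In the iron and antioxidant list 4 of 35 tested genes were higher (11.43%, against 4.1% of all tested genes) and 0 lower. They were nfe2l2a and 3 of the 6 tested ferritin heavy chain genes (fth1a, fthl27 and fthl31), which encode iron stores. fthl27 stood at 1070, 3982, 942 and 1614 CPM in MLCs and 4441, 19000, 2254 and 2565 CPM in cLCs against 376, 302 and 185 CPM in neutrophils and 909.5, 935 and 768 CPM in T cells (adjusted p = 0.00646). MLCs replicate 3 was barely above the highest T cell library. fth1a was more abundant in MLCs (10030 ± 5392 CPM) and cLCs (8537 ± 9096 CPM) than in neutrophils (1113 ± 869 CPM) and T cells (263 ± 150.3 CPM; adjusted p = 0.00073), although cLCs replicate 4 overlapped neutrophils. nfe2l2a, a transcription factor gene of the antioxidant response, had means of 973 ± 180.0 and 701 ± 235 CPM against 238 ± 50.03 and 139.7 ± 20.8 CPM without overlap. Its call (adjusted p = 0.0347) ended under 19 of 29 alternatives.

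**Figure D4:**
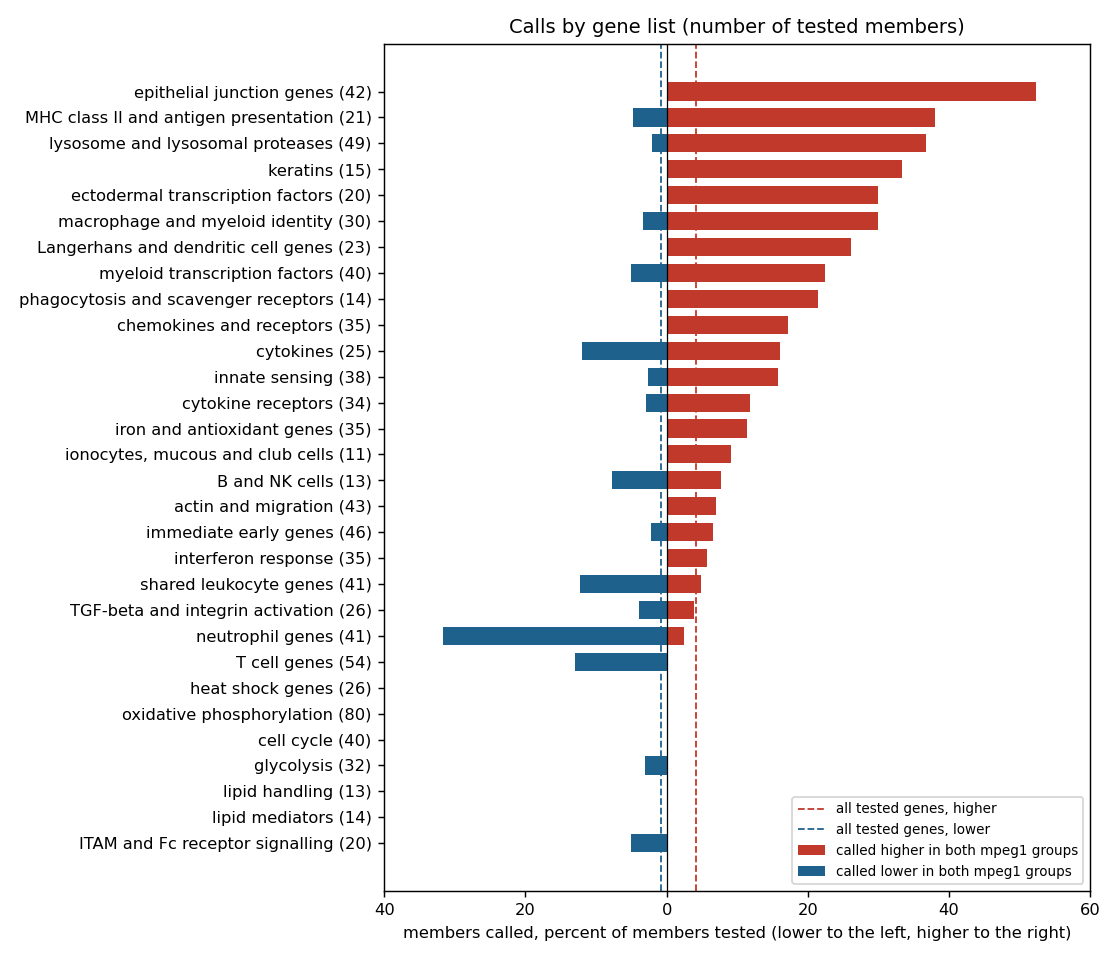
Percent of the tested members of each list (number in brackets, lists with at least 10) that were called higher (right) or lower (left) on the mpeg1 side, with dashed lines at 4.1% and 0.728% of all tested genes. Epithelial junction genes, MHC class II genes and lysosomal genes have the largest shares higher, and neutrophil genes the largest share lower.

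Lower genes were fewer. On the higher side 48 genes met the conditions for named genes, and 15 of them, the most the rule takes, were named. On the lower side 9 met them, and all were named: il34, aldocb, id3, lpxn, srgn, unc13d, sema4aa, pnp5a and stx11a. Among the 9, il34 was called in 1 pair, cLCs with neutrophils, and lpxn, srgn, unc13d and sema4aa in both MLC pairs and in neither cLC pair. il34, a ligand of the macrophage receptor CSF1R, stood at 548, 224 and 354 CPM in neutrophils and 139.6, 432 and 306 CPM in T cells. It had 14.6, 0, 0 and 0 CPM in MLCs and 0 counts in cLCs, so the groups did not overlap (adjusted p = 0.0063; 0.0761 without the 4 libraries of under 6000 genes).

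Among the groups compared, srgn, unc13d and stx11a had their lowest means in MLCs, as had every named lower gene but il34. srgn, the proteoglycan core of leukocyte granules, stood at 6758, 3895 and 2823 CPM in neutrophils, 1420, 1485 and 1546 CPM in T cells, but 0.1997, 3.66, 0 and 0.153 CPM in MLCs and 219.7, 792, 306 and 0 CPM in cLCs. unc13d and stx11a, both needed for granule release by cytotoxic lymphocytes in humans, were also lowest in MLCs by mean among these groups. unc13d had means of 155 ± 65.9, 218 ± 40.03, 0.1498 ± 0.2996 and 37.2 ± 41.7 CPM in neutrophils, T cells, MLCs and cLCs, and stx11a 274 ± 141, 194 ± 68.2, 2.49 ± 3.29 and 71.5 ± 58.2 CPM. The adjusted p was 0.00508 for srgn, 0.0165 for unc13d and 0.0407 for stx11a. The highest cLC library of unc13d (78.4 CPM) and the lowest neutrophil library (79.3 CPM) nearly met. The call of stx11a ended under 16 of 29 alternatives, and those of srgn and unc13d in the fit with 1 mean per side (adjusted p = 0.126 and 0.282). The unc13d call also ended without the 4 libraries of under 6000 genes.

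ets1, a transcription factor gene of lymphocytes, was 1 of the 2 genes called lower in all 4 pairs, and was picked out for that. It had 0 counts in all 8 mpeg1 libraries and in keratinocytes. Neutrophils stood at 15.4, 67.2 and 61.9 CPM and T cells at 382, 152 and 197 CPM, at least 812-fold above the limit of 3 counts over a group (adjusted p = 0.000631). The other was a gene with the placeholder name si:ch73-208g10.1. The anti-inflammatory cytokine gene il10 was called lower at 64.8, 86.5 and 119.8 CPM in T cells and 22.4, 0 and 205 CPM in neutrophils (adjusted p = 0.00474). The mpeg1 side had 1 read of il10, and its groups overlapped because neutrophils replicate 2 was at 0.

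The remaining named genes were lpxn, aldocb, id3, sema4aa and pnp5a. lpxn, which encodes the adhesion adaptor leupaxin, was at 0 in each MLC library, 49.9, 14.8, 30.1 and 0 CPM in cLCs, 62.7, 159.7 and 114 CPM in neutrophils and 282, 122 and 208 CPM in T cells (adjusted p = 0.00501). The aldolase gene aldocb had means of 1.53, 22.5, 475 and 507 CPM in MLCs, cLCs, neutrophils and T cells, and the helix-loop-helix inhibitor gene id3 1.63, 20.3, 181 and 574 CPM. The semaphorin gene sema4aa had 0.0499, 19.96, 288 and 62.5 CPM, and the nucleoside phosphorylase gene pnp5a 24.6, 103, 2532 and 281 CPM. The calls of id3 and pnp5a ended under 13 and 14 of 29 alternatives, those of lpxn and sema4aa with 1 mean per side (adjusted p = 0.225 and 0.113), and that of aldocb without the 4 libraries of under 6000 genes (adjusted p = 0.0837).

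**Figure D5:**
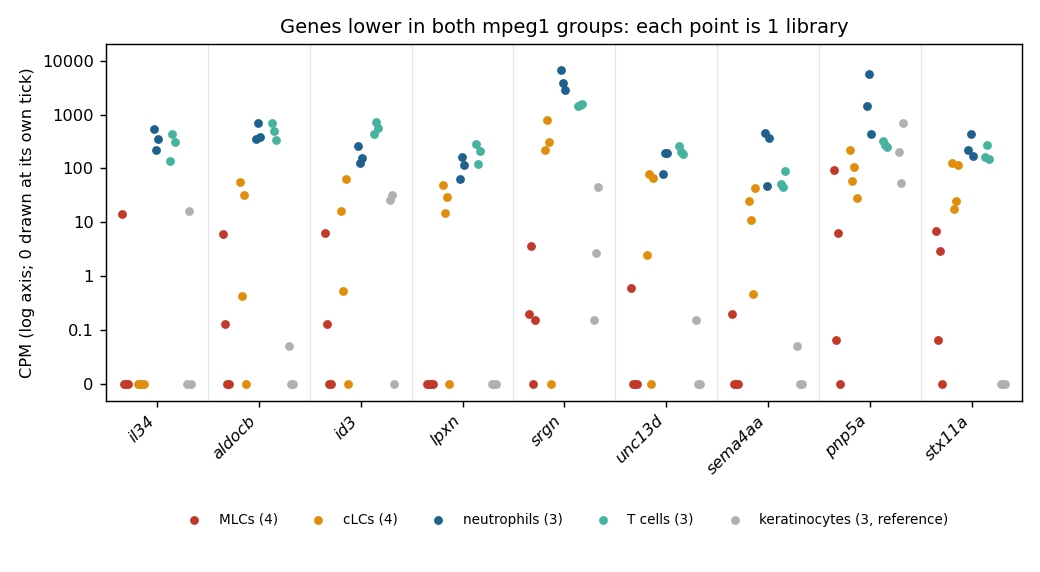
CPM (log axis, with 0 at its own tick) of the 9 named genes lower on the mpeg1 side, 1 point per library and 1 color per group. MLC points lie mostly at or near 0, while the highest cLC points of unc13d, sema4aa, stx11a, lpxn and pnp5a come close to the lowest neutrophil or T cell point.

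Several genes of the other cell types met the rule through traces in 1 library. Of 41 tested neutrophil genes 13 were lower (31.71%, against 0.728% of all tested genes) and 1 higher (padi2). Of 54 tested T cell genes 7 were lower (12.96%) and 0 higher. Without T cells replicate 1 the count of neutrophil genes lower fell from 13 to 2. The peroxidase gene mpx had 14880, 1907 and 3159 CPM in neutrophils and 153, 0 and 0 CPM in T cells against 2.72 CPM or less in mpeg1 libraries, and the calls of lyz, mpx, cpa5 and illr4 ended without T cells replicate 1. Without neutrophils replicate 1 the count of T cell genes lower fell from 7 to 1. The receptor kinase gene zap70 had 422, 507 and 374 CPM in T cells, 0.0846, 0 and 0 CPM in neutrophils and 0 counts on the mpeg1 side, and the calls of zap70, themis, bcl11ba, sla2 and il2rb ended without neutrophils replicate 1. Both means of the other side reached 10 CPM for 6 of the 13 neutrophil genes and 1 of the 7 T cell genes.

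Shared leukocyte genes had 2 of 41 members higher (4.878%, near the 4.1% of all tested genes) and 5 lower (12.2%, against 0.728%). ptprc, the leukocyte common antigen CD45, stood at 827, 568, 272 and 293 CPM in cLCs, 677, 516 and 516 CPM in neutrophils and 770.0, 769 and 742 CPM in T cells. MLCs had 0.399, 0, 0 and 0 CPM, and the call (adjusted p = 0.000455) came from MLCs, since cLCs overlapped neutrophils and T cells. It ended with 1 mean per side (adjusted p = 0.82). The adaptor gene grap2a was at 0.0499 ± 0.0998 CPM in MLCs (adjusted p = 0.00194) against 132 ± 75.7, 275 ± 45.4 and 133 ± 21.2 CPM in cLCs, neutrophils and T cells. Both MLC pairs were called for it and neither cLC pair. Its cLC libraries overlapped T cells but lay below each neutrophil library. The grap2a call, too, ended with 1 mean per side (adjusted p = 0.779).

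In several lists no gene was called with the same direction in all pairs, beside 4.1% of all tested genes higher and 0.728% lower. Among them were lipid handling (13 tested genes), lipid mediators (14), erythrocyte genes (1) and melanophores, fibroblasts and endothelium (6). At these shares few calls would fall in lists of such sizes. By edgeR 0 of 80 oxidative phosphorylation genes, 0 of 40 cell cycle genes, 0 of 26 heat shock genes and 0 of 8 NADPH oxidase genes passed. Of these, 5, 5, 7 and 0 had an unadjusted p under 0.05, against 3257 of all 15247 tested genes. DESeq2 called 1 of the oxidative phosphorylation genes and 1 of the heat shock genes higher, and 3 of the cell cycle genes lower. The median log2 differences of the oxidative phosphorylation, cell cycle, heat shock and NADPH oxidase lists were 0.20, -1.37, 1.02 and 1.37. The oxidase subunit gene ncf1 illustrates a level shared with neutrophils, at 1571 ± 614, 268 ± 200.1, 1253 ± 982 and 7.896 ± 13.7 CPM in MLCs, cLCs, neutrophils and T cells (adjusted p = 0.259). The heat-shock list was summed because the mpeg1 line carries a heat-shock promoter: its total was 4740 to 13180 CPM in MLCs, 1877 to 14900 CPM in cLCs, 5044 to 8362 CPM in neutrophils and 4880 to 7051 CPM in T cells, and the ranges overlapped.

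Traces of the shared genes were not even on the other side. Of the 92 genes called higher without overlap, 78 had reads in T cells replicate 1 and 31 and 38 in replicates 2 and 3. In neutrophils replicate 1 it was 41, and 18 and 16 in replicates 2 and 3. Over all genes, replicate 1 of both groups also had the most detected genes. T cells replicates 1, 2 and 3 had 16921, 9418 and 10796, and neutrophils replicates 1, 2 and 3 had 11404, 5071 and 4556. The source of the reads of the shared genes was not tested.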

How the data were processed

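Gene counts of 17 SMART-seq2 libraries (paired-end) were analysed. The deposited tables hold raw counts per gene, and TPM values deposited beside them by the authors. STAR, featureCounts and the zebrafish build danRer10 are named in the submitters' processing notes. The notes used here state neither versions nor annotation nor strandedness, so reads of overlapping or antisense genes and of near-identical copies cannot be assigned with certainty. Each table had 35572 lines, of which 455 repeated an identifier with the same values and were dropped, leaving 35117 genes.

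Counts were fitted with edgeR 4.0.16 (R 4.3.3; TMM scaling, filterByExpr, 1 mean per group, quasi-likelihood test, Benjamini-Hochberg adjustment over 15247 genes, threshold 0.05). The contrast was the mean of MLCs and cLCs minus the mean of neutrophils and T cells. Keratinocytes entered the fit and no contrast. CPM used the TMM factors. The biological coefficient of variation was 2.03. Error terms after ± are SDs over libraries (n = 4 for MLCs and cLCs, n = 3 otherwise). A group without reads was given a limit of 3 counts over the group, which covers counting error only. Alternatives were RLE scaling, DESeq2 1.42.0, other filters, limma 3.58.1 on log2 TPM, a replicate block, a test for a fold above 2, 1 mean per side, and left-out libraries.

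Genes were named by a rule. Per direction it took up to 15 genes with the largest weakest-pair fold among called genes without overlap, with at least 50 CPM in both groups of the higher side and a symbol that is no placeholder. It added markers and at most 4 called members per list and direction. Unnamed list members may be described. A gene that the rule names is not reported here. The members and lists were chosen with earlier results of these data known.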

Additional observations from a re-analysis of the deposited data

Results flagged for a closer look

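Dixon's criterion at the 95% level was applied to 160 groups of 4 libraries with at least 1 CPM. Chance meets it in about 1 group in 20 only for normally distributed values. Groups with reads in only 1 library, such as swap70a in cLCs and mafba in MLCs, meet it by construction. The number of groups that met it therefore cannot show an excess over chance. In 39 of the 160 groups, 1 library stood apart from the other 3 by this criterion. cLCs replicate 2 was the most frequent, above the other cLCs for mpeg1.1 (9898 CPM), ctsk (1689 CPM), ifi30 (9504 CPM), krt8 (24140 CPM), fthl27 (19000 CPM), grn2 (199.6 CPM), spic (13.65 CPM), il22ra2 (86.33 CPM), ccl19a.1 (23.61 CPM), epcam (88.28 CPM), cldnh (139.3 CPM), elf3 (5.091 CPM) and swap70a (2.166 CPM). The TMM factor of cLCs replicate 2 was 0.4861, the lowest of the 17 libraries. It was 0.8424, 1.215 and 1.496 in cLCs replicates 1, 3 and 4. A low factor raises every CPM of a library, so the height of cLCs replicate 2 depends in part on the scaling. How far it does was not tested. The other cLC replicates stood apart less often. Replicate 1 was high for ccl35.1 (2921 CPM), ccl35.2 (629.5 CPM), evla (42.49 CPM), mxb (4.075 CPM), mpx (2.717 CPM) and myca (8.344 CPM), replicate 3 for tmem176l.4 (268.9 CPM) and replicate 4 for tnfsf10 (64.73 CPM).

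Among MLCs, replicate 1 was high for several genes that the other MLC libraries barely held: il34 (14.58 CPM), aldocb (5.991 CPM), id3 (6.391 CPM), pnp5a (91.67 CPM), mafba (3.794 CPM), krt18 (13.98 CPM) and klf4 (20.57 CPM). It was also above the rest for nr4a3 (662 CPM). Replicate 2 was high for cd74a (30890 CPM), cd83 (2601 CPM), fth1a (18080 CPM), spint2 (1650 CPM), ccl19a.1 (1637 CPM), mertka (38.22 CPM) and srgn (3.659 CPM). Replicate 3 was high for lck (12.4 CPM), and replicate 4 for slc37a2 (195.9 CPM) and marco (51.26 CPM).

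Among the named genes, 3 differed between the mpeg1 groups themselves by edgeR. The fitted log2 difference of MLCs against cLCs was 6.92 for cdh1, -12.71 for ptprc and -11.79 for grap2a; the last 2 rest on MLC libraries at or near 0, so their size is no bound.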

How the results depend on the processing

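No gene named by the rule changed direction under any alternative. The median log2 difference over all tested genes, 0.59, became -0.18 and -0.09 with limma on log2(TPM + 1) and log2(TPM + 0.1) and 0.0 with no filter. The 625 genes higher became 1425 with DESeq2 and 261 without the 4 libraries under 6000 genes. The 111 lower became 261 with DESeq2, 169 without a filter on low counts, 539, 380 and 419 with limma on TPM (pseudocount 1, pseudocount 0.1, no filter) and 54 without the 4 libraries. Leaving out 1 library gave 240 to 808 higher and 46 to 119 lower. The 13 genes higher in all 4 pairs became 314 with DESeq2, 112 without a filter, 63, 62 and 54 with limma on TPM and 1, not among the 13, without the 4 libraries. The 2 lower became 30, 15, 23, 18, 19 and 0 under the same settings and 4 with the 14 compared libraries alone. Leaving out 1 library gave 0 to 24 and 0 to 4. It was 0 higher without cLCs replicate 1, cLCs replicate 2 or T cells replicate 2. The causes of these shifts were not tested.

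With replicate number as a block 787 genes were higher and 105 lower, 71 and 5 in all 4 pairs. Of 31 same-numbered pairs of libraries 2 correlated above 0.1 (-0.044 to 0.176), and the same number correlated best in 12. Both above 0.1 were MLCs with cLCs, replicates 1 and 2. As not every pair passed 0.1, the numbers were not taken to pair the libraries. For MLCs with cLCs, which share a line, the same number correlated best in replicates 1, 2 and 3 (0.176, 0.105 and 0.032). In replicate 1 the same number also correlated best for MLCs with T cells (0.053) and cLCs with neutrophils (0.055). The same was seen for cLCs with T cells (0.068) and neutrophils with T cells (0.087). It was not seen for MLCs with neutrophils (-0.03) or for any group with keratinocytes. Whether same-numbered libraries share an experiment was not tested, and the rule over all 31 pairs cannot decide it. DESeq2 called 609 of the 625 genes and limma on log2(TPM + 1) 466. Of the libraries with few genes, 2 were cLCs and 2 neutrophils, which limits what could be detected there.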

Other observations

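Of 34 tested cytokine receptor genes 4 were higher (11.76%, against 4.1% of all tested genes) and 1 lower (2.941%, against 0.728%). il4r.1, an interleukin-4 receptor gene, was the 1 without overlap, with means of 35.6 ± 18.8 CPM in MLCs and 68.5 ± 45.96 CPM in cLCs against 1.68 ± 2.91 and 0.03396 ± 0.0588 CPM in neutrophils and T cells (adjusted p = 0.0167). Its call ended without T cells replicate 2 (0.0804) or 3 (0.0827) and with 1 mean per side (0.0559). il22ra2, known in mammals as a soluble inhibitor of interleukin-22, had 3052 ± 1898 CPM in MLCs and 24.2 ± 41.7 CPM in cLCs, with 0 counts in neutrophils and keratinocytes (adjusted p = 0.00201). Of 14 phagocytosis genes 3 were higher (21.43%, against 4.1% of all tested genes). The scavenger receptor gene marco had 2634 ± 3121 CPM in cLCs and 13.4 ± 25.2 CPM in MLCs (adjusted p = 0.00888, and 0.194 without the 4 libraries of under 6000 genes). The integrin gene itgam averaged 312 ± 184 CPM in MLCs but 3.22 ± 3.93 CPM in cLCs (adjusted p = 0.0393). The itgam call ended under 12 of 29 alternatives, and its cLC mean was near that of neutrophils (2.81 CPM).

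A pair of genes picked out after their values were seen encodes the light and heavy chain of an amino acid exchanger. slc7a7 had 163, 61.9, 63.4 and 86.8 CPM in MLCs, 889.9, 1609, 483 and 192 CPM in cLCs, 0 in neutrophils and 19.5, 27.2 and 23.96 CPM in T cells (adjusted p = 0.00022). slc3a2a had 10.19, 16.9, 28.2 and 85.99 CPM in MLCs and 375, 569.8, 329 and 88.1 CPM in cLCs, with 0 in neutrophils and 0.357, 0 and 0 CPM in T cells (adjusted p = 0.000626). Both were above all neutrophil and T cell libraries in all 8 mpeg1 libraries, and both were higher in each cLC library than in each MLC library.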
